A study of Homo sapiens with 6 samples.

Results

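The genes described here code for the proteins that build the nuclear pore and carry cargo through it: nucleoporins, importins, transportins and exportins. They were chosen by symbol (names beginning NUP, IPO, XPO, KPNA, KPNB or TNPO and followed by a number, or XPOT). The rule itself uses no measured value, but it was set with earlier results of these data known. The rule found 44 genes among the 10779 that the deposited tables hold: 21 nucleoporins, 6 importin alphas, 11 importin beta type receptors and transportins, and 6 exportins. Translational efficiency was given for 43 of them, codon-resolved ribosome occupancy for 38, and both for 37. NUP58, NUP88, NUP98, NUP107, NUP214 and KPNA2 had a translational efficiency only, and IPO4 had an occupancy only.

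The nuclear pore complex is a ring built from many copies of a set of different proteins in the nuclear envelope. The Y complex forms its outer rings, the inner ring complex its core, and nucleoporins rich in phenylalanine-glycine (FG) repeats fill the channel. Importins bind cargo in the cytoplasm and release it in the nucleus on meeting Ran-GTP, whereas exportins need Ran-GTP to bind their cargo. Importin alphas read the classical nuclear localization signal and are themselves carried by importin beta (KPNB1).

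Ribosome profiling, the sequencing of mRNA stretches protected by ribosomes (RPFs), was done in HEK293 cells, a human embryonic kidney line, with 3 RPF libraries and 3 total RNA libraries. All were labelled as control siRNA, so the series holds a single condition and every comparison is between genes. By the paper's methods, living cells were already exposed to cycloheximide, at 100 µg/ml, before they were washed and lysed. The wash and the lysis buffer held the drug at the same concentration. Its effect on where ribosomes lay along the mRNA was not tested, since every library had it. The labels do not say that replicates were separate cultures, so p-values measure the spread between these samples, which may be technical. The libraries are bulk, and expression in fewer cells cannot be told apart from less RNA per cell. Of the markers checked, VIM, KRT8, KRT18, NEFL, NEFM and INA were in both tables, while ALB, PTPRC and HBG1 were in neither. They differed in mRNA abundance, as estimated from the occupancy values. VIM, NEFL and NEFM exceeded 98.5%, 98.2% and 97.7% of transcripts and KRT18 78.8%, but KRT8 exceeded 27.5% and INA 5.43%.

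Translational efficiency is the deposited ratio of RPFs to total RNA, given for each replicate and without a unit. The transport genes lay mostly in the upper part of its range. With limma on log2(value + 0.01), 31 of the 43 lay above the median of all genes at an FDR of 0.05, where 44.7% of all 8121 genes did. Another 8 lay below it, where 44.6% of all genes did, and NUP54, NUP62CL, NUP98 and NUP214 were not called. The median over the transport genes was 0.504 and that over all genes was 0.385. Transport receptors were above the median in 18 of 22 cases and below in 4, and nucleoporins were above in 13 of 21 and below in 4. The values of 1 gene differed little between replicates, with a median coefficient of variation of 4.65%, against a spread between genes from 0.146 to 26.6.

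**Figure D1:**
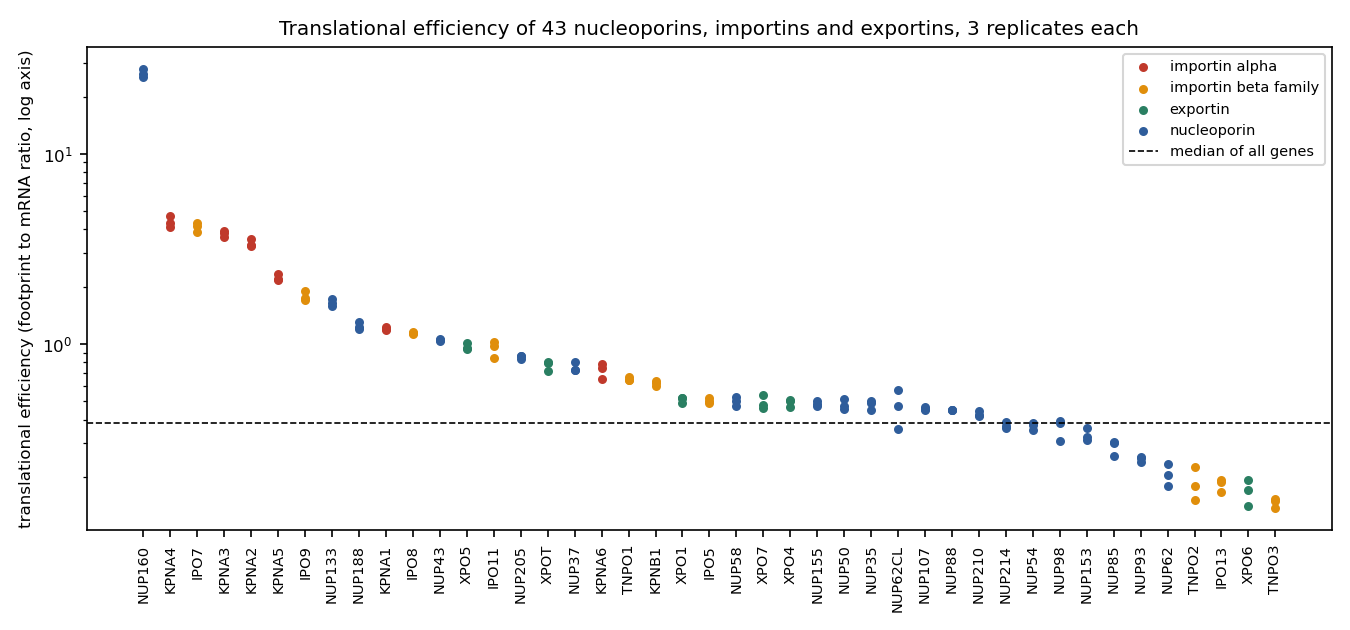
Translational efficiency (log axis) of the 43 genes ordered by their mean, with a point for each of the 3 replicates, coloured by family; the dashed line is the median of all genes. NUP160 stands alone at 26.6, importin alphas fill most of the next places, and TNPO3 is lowest at 0.146.

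Importin alphas, the adaptors that recognise classical nuclear localization signals, were the family with the highest values: all 6 lay above the median of all genes, and their own median was 2.81. KPNA4 had translational efficiencies of 4.31, 4.12 and 4.70 in replicates 1, 2 and 3, which put it 3.48 ± 0.06 (SE) above the median on the log2 scale (adjusted p = 1.36e-06). KPNA3, its closest paralog, had 3.93, 3.64 and 3.84. KPNA4 exceeded KPNA3 in every replicate, by ratios of 1.10 to 1.22, and no value of KPNA3 reached the range of KPNA4. KPNA2, the importin alpha linked to proliferating cells, had 3.30, 3.28 and 3.56, but 44.7% of the 30-base stretches of its CDS also occur in transcripts of other genes, pseudogenes among them, and for KPNA4 it was 28.2%. KPNA5 had 2.33, 2.20 and 2.18, below the 3 genes before it in every replicate. The low end of the family was KPNA1, with 1.20, 1.22 and 1.19, and KPNA6, with 0.656, 0.744 and 0.786. KPNA5, KPNA1 and KPNA6 are one another's closest paralogs, and their values did not overlap: KPNA5 was 1.80 to 1.94 times KPNA1, and KPNA1 was 1.51 to 1.82 times KPNA6. Their order was another one in the mean occupancy of CDS codons, the per-codon ribosome signal relative to mRNA, with 0.0619 for KPNA5, 0.239 for KPNA1 and 0.0965 for KPNA6.

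Among the importin beta type receptors, 7 of 10 lay above the median of all genes and 3 below. IPO7, an import receptor for ribosomal proteins and signalling factors, was highest with 4.32, 4.18 and 3.89 (log2 difference 3.39 ± 0.06, adjusted p = 1.32e-06), although 39.4% of its CDS stretches are shared with other transcripts. Its paralog IPO8, known for carrying SMADs and Argonaute proteins, had 1.16, 1.14 and 1.13. IPO7 was 3.43 to 3.71 times IPO8 in the same replicate. IPO9, a receptor for histones, had 1.90, 1.74 and 1.70, and IPO11, which carries ubiquitin-conjugating enzymes, had 1.02, 0.842 and 0.970. KPNB1, the carrier of importin alpha with its cargo, was nearer to the median, with 0.622, 0.603 and 0.639 and a log2 difference of 0.68 ± 0.05. IPO5, another carrier of ribosomal proteins and histones, had 0.488, 0.504 and 0.521.

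The transportins did not lie together. TNPO1, the receptor for PY-type localization signals of RNA-binding proteins, had 0.647, 0.673 and 0.649, above the median of all genes, and 27.8% of its CDS stretches are shared with other transcripts. TNPO2, its close paralog, had 0.180, 0.225 and 0.152 and lay below it by 1.03 ± 0.11 on the log2 scale (adjusted p = 4.84e-04). The ratio of TNPO1 to TNPO2 was 2.99 to 4.29 in the 3 replicates. TNPO3, the receptor for SR splicing factors, was the lowest transport gene, with 0.149, 0.137 and 0.152 (log2 difference -1.33 ± 0.05, adjusted p = 1.13e-05). IPO13, which both imports and exports, had 0.194, 0.187 and 0.166, and its range overlapped those of TNPO2 and XPO6.

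Of the exportins, 5 of 6 lay above the median of all genes. XPO5, the exporter of pre-miRNA hairpins, had 1.02, 0.940 and 0.954, and XPOT, the tRNA exporter, had 0.802, 0.797 and 0.724. XPO1, the general exporter of proteins with leucine-rich signals, had 0.491, 0.522 and 0.521. XPO7 had 0.538, 0.475 and 0.461 and XPO4 had 0.505, 0.468 and 0.501, so XPO1, XPO4 and XPO7 overlapped and were not ordered by these replicates. XPO6, the exporter of actin with profilin, stood apart at 0.193, 0.170 and 0.141, below the median by 1.15 ± 0.09 on the log2 scale (adjusted p = 1.36e-04). XPO5 was 5.27 to 6.76 times XPO6. Of the XPOT CDS stretches, 47.8% are shared with other transcripts.

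In the Y complex, the outer scaffold of the pore, 5 of 6 measured NUP subunits lay above the median and 1 below. NUP160 (GRCh37, chr11:47799639-47870107, minus strand, 36 exons in the matched transcript) had 26.4, 25.4 and 27.9 and was the 30th highest of all 8121 genes (log2 difference 6.08 ± 0.05, adjusted p = 8.99e-07). The next subunit was NUP133 with 1.72, 1.65 and 1.59, followed by NUP43 with 1.05, 1.07 and 1.04 and NUP37 with 0.734, 0.806 and 0.733. NUP107 had 0.455, 0.452 and 0.466. NUP85 was the single subunit called below the median, with 0.258, 0.304 and 0.302. No range of one of these 6 subunits met that of another. NUP133 was 5.26 to 6.65 times NUP85, while their mean occupancies per CDS codon were 0.0510 and 0.0514.

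The inner ring scaffold was split in the same manner, 4 subunits above and 1 below. NUP188 had 1.30, 1.23 and 1.19, and NUP205, its structural relative, had 0.869, 0.831 and 0.862, or 0.666 to 0.723 times NUP188. NUP155 had 0.504, 0.470 and 0.482 and NUP35 had 0.489, 0.501 and 0.450, with overlapping ranges. NUP93, which links the ring to the channel nucleoporins, had 0.239, 0.255 and 0.251 and lay 0.61 ± 0.05 below the median on the log2 scale (adjusted p = 1.55e-04). NUP188 was 4.76 to 5.45 times NUP93.

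Nucleoporins of the channel, the membrane and both faces of the pore lay around the median, without a common direction. NUP62, the central channel FG nucleoporin, had 0.235, 0.180 and 0.206 and was below the median (log2 difference -0.87 ± 0.08, adjusted p = 2.79e-04). Its partner NUP58 had 0.500, 0.528 and 0.473 and was above the median, whereas NUP54, the other partner, had 0.384, 0.353 and 0.376 and was not called. The basket nucleoporin NUP153 had 0.363, 0.311 and 0.325 and was called below the median by a small difference of 0.20 ± 0.06 on the log2 scale (adjusted p = 0.0300). That call was lost without replicate 2, at a difference of -0.16, and without replicate 3, at -0.18. NUP50, the other basket member, had 0.516, 0.457 and 0.473, with 77.3% of its CDS stretches shared with other transcripts. The membrane nucleoporin NUP210 had 0.422, 0.443 and 0.417, called above the median at 0.15 ± 0.05 (adjusted p = 0.0331), a call that was lost without replicate 1, 2 or 3, at differences of 0.16, 0.12 and 0.18. NUP62CL, a short relative of NUP62, had the widest replicates, 0.575, 0.355 and 0.474, and was not called. Without replicate 2 it was called above the median, at 0.43.

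Other genes of the transport pathway, from a list that included the Ran cycle and pore proteins with other symbols, lay above the median in 16 of 25 cases and below in 7. RAN, the GTPase that sets the direction of transport, had a mean of 1.86 ± 0.0607 (SD, n = 3), and NUTF2, which returns Ran to the nucleus, had 1.30 ± 0.0497. CSE1L, the exporter that recycles importin alpha, had 1.29 ± 0.0404. RCC1, the nucleotide exchange factor of Ran, was among the lowest with 0.134 ± 0.00648, and RANGAP1, the GTPase-activating protein, had 0.772 ± 0.0624. SEH1L, SEC13 and AHCTF1, Y complex subunits without a NUP symbol, had 1.32 ± 0.00377, 0.864 ± 0.0486 and 0.702 ± 0.151, and the 3 were above the median.

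The genes called above and below the median differed in base composition, a property that the rule did not use. The share of codons that end in G or C had a median of 39.7% in the 31 genes above and 63.9% in the 8 below. Over all 44 genes it was 41.8%, and over 8454 matched transcripts it was 56.7%. TNPO2, with 79.3%, and IPO13, with 70.9%, had low translational efficiency, while KPNA4 had 32.2% and KPNA5 26.3%. TNPO3, at 48.4%, and NUP153, at 32.2%, lay below the median without a high share, and NUP210 had 75.4% and lay just above it. The Spearman coefficient between this share and translational efficiency was -0.39 over the 43 genes, -0.59 over the 22 receptors and -0.29 over the 21 nucleoporins, beside -0.23 over 6180 genes. With mean CDS occupancy in place of translational efficiency it was -0.38 over 38 genes, near the -0.39 over 8454 transcripts. CDS length in codons against translational efficiency gave -0.04 over the 43 genes, -0.45 over the 22 receptors and -0.02 over the 21 nucleoporins, beside -0.25 over 6180 genes. The medians of base composition over all genes called above and below were not computed. Genes are not replicates and share their libraries, so these coefficients are a description.

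The second deposited table gives ribosome occupancy for each codon: in-frame RPF counts normalised for library size and divided by the mRNA abundance (TPM) of the transcript, with replicates combined. Each value could be written as whole reads times 3 step sizes, 1 for each combined library, and all values of the 38 genes could be resolved into whole reads. Their CDS held 803726 in-frame reads, from 723 for NUP62CL to 93344 for IPO5. The 3 libraries could not be matched to replicate numbers, so their values are given as a lowest and a highest. The inverse of the steps gives the abundance of an mRNA relative to the median transcript. These mRNAs were long and abundant: their median CDS had 963.5 codons against 448 for all transcripts, and their median relative abundance was 2.95, with 35 of 38 above that of the median transcript. KPNB1 was the most abundant at 17.1, followed by IPO5 at 11.6, XPOT at 9.22, XPO1 at 8.82 and NUP155 at 8.57. NUP210 was least abundant at 0.464.

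Mean occupancy per CDS codon had a median of 0.0586 over the 38 genes and 0.0450 over all 9570 transcripts, and 26 of the 38 exceeded the latter. The highest values were those of 3 importin alphas. KPNA1 had 0.239 (0.233 to 0.247 in the 3 libraries), KPNA4 had 0.224 (0.210 to 0.246) and KPNA3 had 0.194 (0.179 to 0.207). IPO8, at 0.154, and IPO7, at 0.144, came next. KPNA1 and KPNA4 overlapped in their libraries, and KPNA3 lay below both. The other importin alphas in the table, KPNA6 at 0.0965 and KPNA5 at 0.0619, lay closer to the median of the group. The lowest values were those of IPO13 at 0.0118 (0.0107 to 0.0125), XPO6 at 0.0147, XPOT at 0.0197, IPO4 at 0.0218 and TNPO3 at 0.0291. Every 30-base stretch of the IPO4 CDS also lies in a read-through transcript, so its reads cannot be told from those of that gene. Low occupancy did not go with scarce mRNA in XPOT, whose relative abundance of 9.22 exceeded that of 95.0% of transcripts, nor in XPO6, at 4.95. Occupancy is divided by mRNA abundance, and the abundance was taken from the same values, so the measures are not independent.

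**Figure D2:**
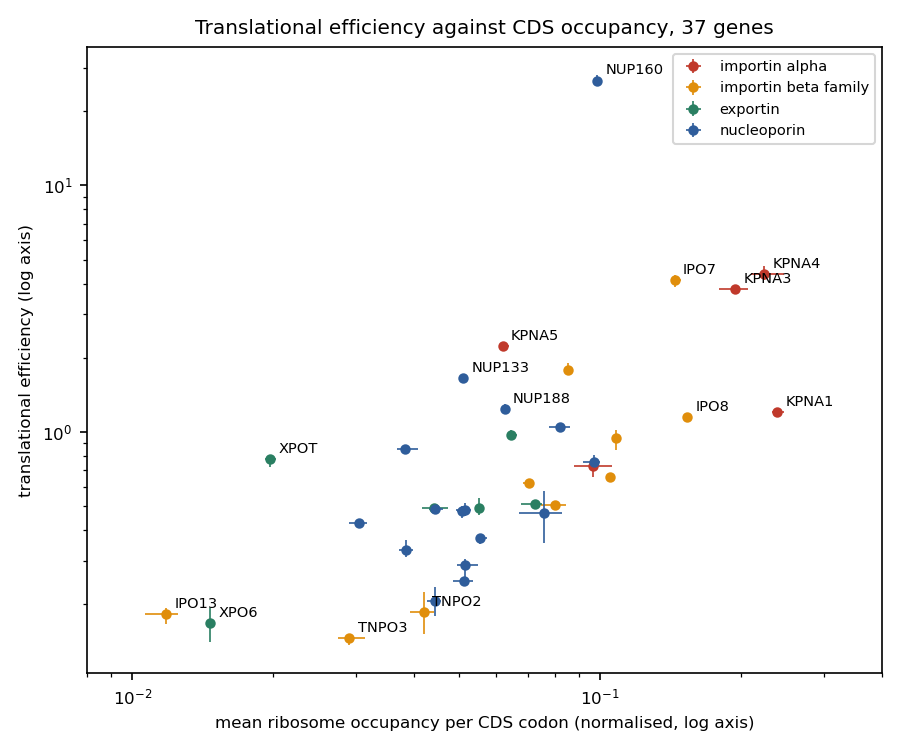
Mean translational efficiency against mean occupancy per CDS codon for 37 genes, both on log axes, coloured by family; bars run from the lowest to the highest replicate or library. The measures rise together, with NUP160 and XPOT far above the other genes at their occupancy.

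Both measures divide ribosome reads by mRNA from the same libraries. Their Spearman coefficient was 0.71 over the 37 genes and 0.69 over 6912 genes. NUP160 was the exception. Its occupancy of 0.0986 (0.0968 to 0.0995) was exceeded by IPO11 and TNPO1, whose mean translational efficiencies were under 1, and its ratio of translational efficiency to occupancy was 5.13 above the median gene on the log2 scale, the 9th highest of all. From its steps NUP160 mRNA was 2.12 times the median transcript, and its CDS shared no 30-base stretch with another gene. XPOT stood 2.35 and KPNA5 2.23 above the median ratio on the same scale, NUP133 2.07 and IPO7 1.89. At the other end TNPO2 stood at -0.80 and NUP62 at -0.73. How the deposited ratio was computed is not stated in the paper or labels, and what sets NUP160 apart was not tested.

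In-frame reads per codon compare the subunits of a complex per length and without dividing by mRNA. In the Y complex 8 subunits could be compared: 5 with a NUP symbol, SEH1L, SEC13 and AHCTF1. NUP133 had 21.8 reads per codon, NUP37 had 21.6, NUP160 had 18.9 and NUP85 had 14.1. Relative to the median of the 8 these were 1.00, 0.996, 0.870 and 0.649, and NUP43 was highest at 2.13 (2.05 to 2.18 in the libraries). NUP160 and NUP85, whose translational efficiencies were the highest and the lowest among the NUP subunits, differed 1.34-fold in reads per codon. SEH1L stood at 1.15, SEC13 at 1.30 and AHCTF1, also known as ELYS, at 0.292. In the inner ring NUP205, NUP93, NUP188 and NUP35 had 18.6, 16.0, 14.1 and 12.8 reads per codon, and NUP155 had 34.2, or 2.14 times the median of the complex (2.05 to 2.22). NUP155 and NUP43 were the subunits with the most abundant mRNA among the NUP members of their complexes.

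The balance of ribosomes between the start and the end of the CDS was measured as the occupancy of the first 75 codons over that of the last 75. It had a median of 1.18 over the 38 genes and 0.980 over 9309 transcripts with a CDS over 100 codons, and it exceeded 1 in 22 of 38 (57.9%), against 49.0% of the transcripts. In 36 of these genes the 3 libraries lay on the same side of 1, with 21 above and 15 below. NUP188 had the steepest profile, with 6.84 (6.62 to 7.24), higher than 97.4% of transcripts. TNPO2 had 3.43 (2.85 to 4.15), KPNA4 had 3.37, XPOT had 2.89 and NUP210 had 2.53 (1.67 to 4.22, from 2414 reads). The lowest ratios were those of NUP62 at 0.332 (0.327 to 0.336), NUP133 at 0.332 (0.264 to 0.396), NUP160 at 0.350, NUP62CL at 0.470 and KPNB1 at 0.498. For KPNB1 the ratio belongs to the isoform used, with a CDS of 732 codons. Before its start codon, 112 codons are coding in another annotated isoform, so its first 75 codons are not the start of that longer frame. In NUP133 the last 75 codons, at an occupancy of 0.0301, lay below the mean of its CDS, 0.0510, and the first 75 lay lower still. The size of the ratio depended on the window in 10 of the 38 genes, where it moved over 1.5 times with windows of 50 codons. It was then 5.67 in TNPO2, 5.33 in NUP210, 0.206 in NUP133 and 0.0631 in NUP160.

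**Figure D3:**
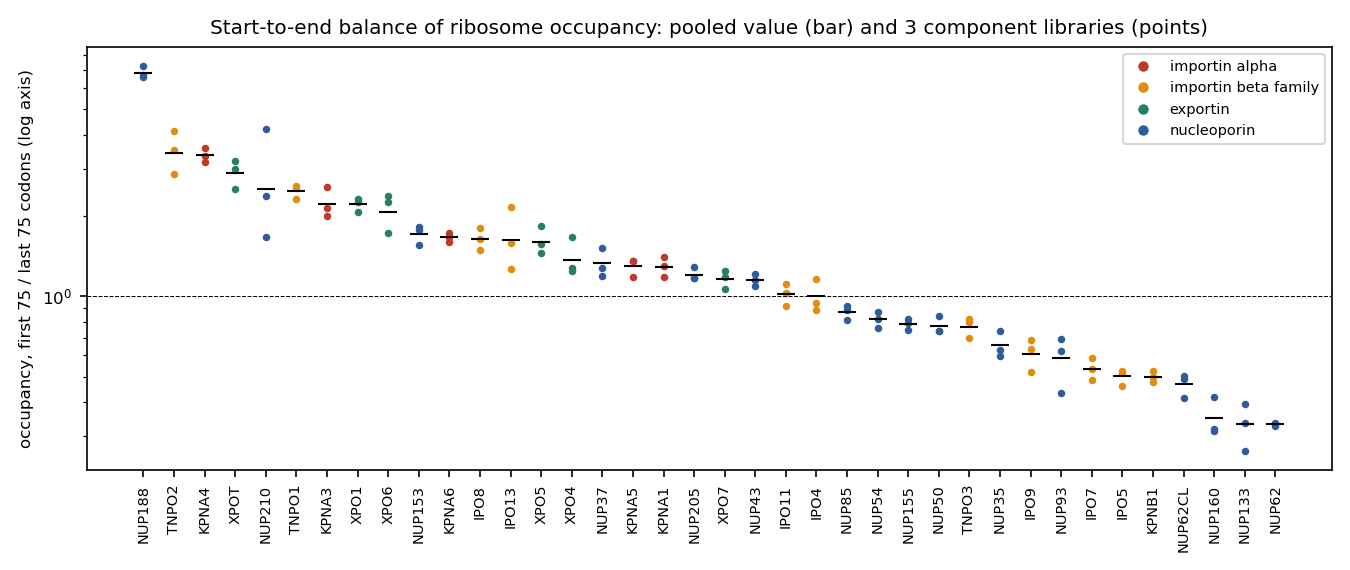
Ratio of occupancy in the first 75 to the last 75 codons (log axis) for 38 genes in order, with the pooled value as a bar and the 3 combined libraries as points, coloured by family. NUP188 is highest at 6.84, and NUP62 and NUP133 are lowest at 0.332. The libraries of a gene lie furthest apart in NUP210, from 1.67 to 4.22.

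The profiles showed different shapes behind these ratios. In NUP188 the first 12 bins of 25 codons all exceeded the CDS mean, and the last 19 bins all lay below it. In TNPO2 the excess came from codons 26 to 50, at 4.57 times the mean. In NUP62 the first 25 codons stood at 1.69 times the mean and codons 476 to 500 at 4.45 times, with a long stretch below the mean between them. Of the CDS stretches of NUP62, 18.05% are shared with other transcripts. KPNA4 had 2.11 and 2.23 in its first 2 bins and further maxima of 2.24 at codons 301 to 325 and 1.93 at codons 426 to 450.

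**Figure D4:**
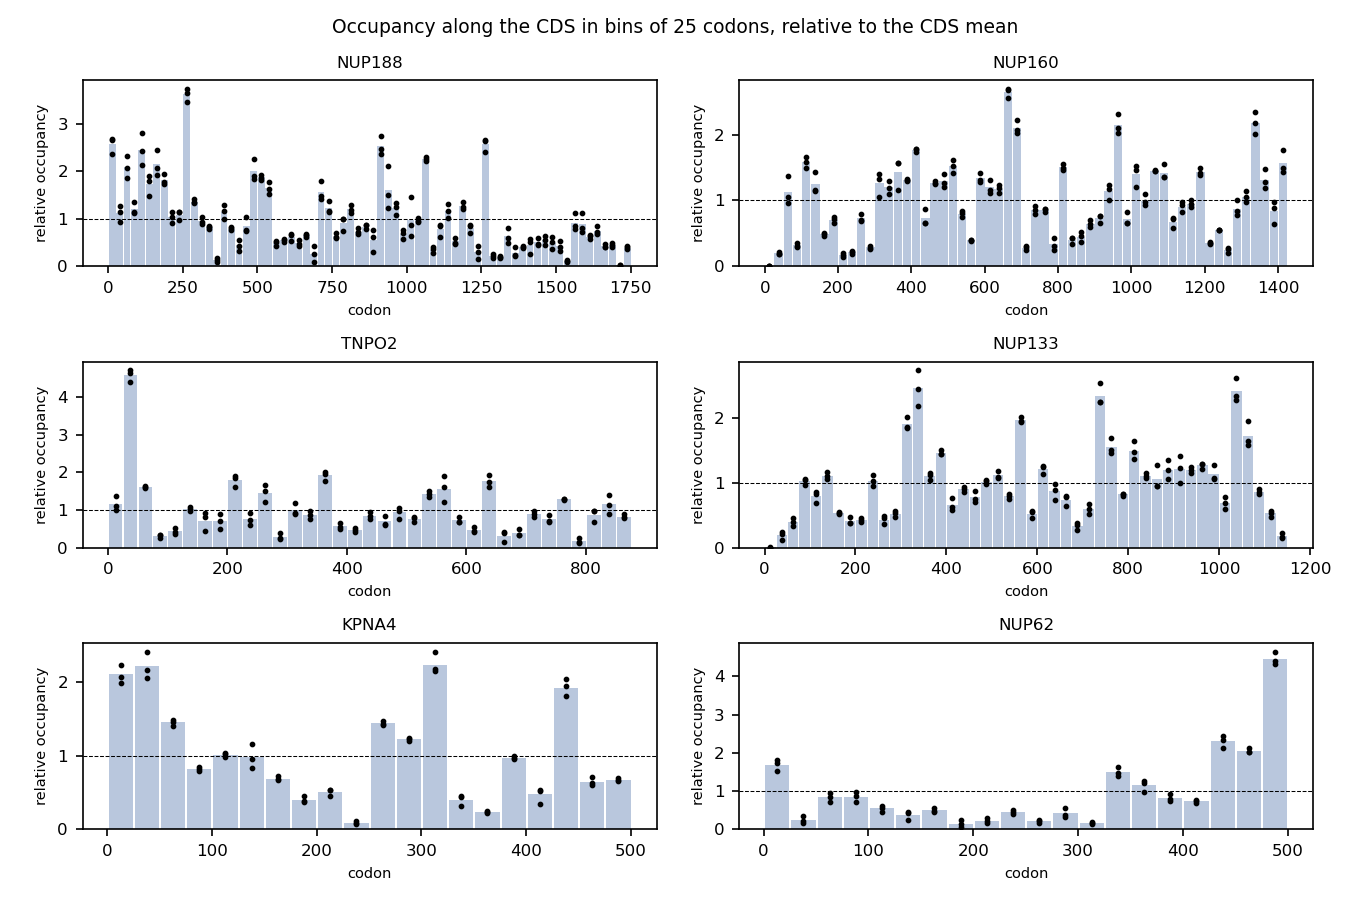
Occupancy along the CDS of NUP188, TNPO2, KPNA4, NUP160, NUP133 and NUP62 in bins of 25 codons, relative to the mean of the CDS; bars are the pooled value and points the 3 combined libraries. The first bins of NUP160 and NUP133 are near 0, and NUP62 reaches 4.45 times its mean in codons 476 to 500, the last bin drawn of its 523 codons.

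In 4 of the 38 genes the first 25 codons held less than 0.1 of the mean occupancy, a share of 10.5% beside 9.90% of 6553 well covered transcripts (reads in at least 40% of codons). IPO5 had 0 in-frame reads in its first 18 codons, which allows up to 3 by counting error alone. From the next in-frame ATG, at codon 19, to the end of the CDS the average was 85.0 reads per codon. That ATG itself had 0 reads, the first codon with reads was codon 21, and the first 25 codons held 15 reads. NUP160 had 5 reads in the 34 codons before its next ATG and an average of 19.3 per codon from there to the end. Its codon 35 ATG had 1 read, and codons 26 to 50 stood at 0.193 times the CDS mean. The averages of IPO5 and NUP160 therefore do not give the density at the ATG. NUP133 had 1 read in its first 25 codons, though 254 reads lay before its next ATG at codon 67. IPO7 had 8.15 reads per codon in the 13 codons before its next ATG and 4.08 per codon in codons 14 to 25, so its density did not rise at that ATG. Over codons 14 to 43 it had 61.4 reads per codon, and 70.2 from there on. The annotated start codons and the next in-frame ATG of IPO5 and NUP160 are shown because the codons between them are nearly empty, with each ATG in capitals, in GRCh37 coordinates and GENCODE transcripts matched by CDS length.
IPO5 start codon, chr13:98622023-98622049, plus strand: gcatgtcttcaaATGcctgaggatcaa
IPO5 codon 19, across an exon junction: acaataagcgcaATGgcggcggccgcg
NUP160 start codon, chr11:47869958-47869984, minus strand: tctgctcccggaATGcttcacctgtcc
NUP160 codon 35, chr11:47869856-47869882, minus strand: gacggcgggaagATGgcggcggcggga
In both genes the later ATG is followed by gcg codons. With the first window moved to begin at codon 26, a choice made after these values were seen, the ratio became 0.905 in NUP133, 1.04 in IPO7, 0.600 in IPO5 and 0.434 in NUP160.

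At the start codon itself 15 of 38 genes exceeded their CDS mean and 11 had no read, or 39.5% and 28.9%, near the 37.9% and 30.2% of the well covered transcripts. TNPO1 had 1086 reads at its start codon, 21.2 times its mean, and NUP54 had 456, or 20.1 times. In both the start codon was the highest codon of the CDS. IPO11 followed with 234 reads, 18.6 times its mean. Of the CDS stretches of IPO11, 13.8% are shared with other transcripts.

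Single codons carried a visible part of the signal in some genes. The largest shares of CDS occupancy in 1 codon were 7.65% at codon 151 of NUP37, 6.16% at codon 121 of NUP62CL, 5.18% at codon 485 of NUP62, 4.01% at codon 172 of NUP43 and 3.97% at codon 1 of NUP54. In the median gene of the group the share was 2.42%, against 4.95% over all transcripts, whose CDS are shorter. The shares in NUP43 and NUP54 lay below the latter, so these are the largest shares within the group and not among transcripts. The surroundings of 4 of these codons are shown so that the codons can be read. Each line holds 4 codons, the highest codon and the codon after it in capitals, and 3 more codons, all in frame.
NUP37 codon 151, across an exon junction: cacacctgcaggATTTGGaacttggaa
NUP62CL codon 121, chrX:106396704-106396730, minus strand: cgtattttacatGGAGAAgtgaacaaa
NUP62 codon 485, chr19:50411598-50411624, minus strand: cacatggactcaCTGCAGtggatcgac
NUP43 codon 172, across an exon junction: gacaatgcagatAGTAGTacactccat

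The codon that follows the highest one was often one for glutamate or aspartate. This was so in 17 of the 37 genes with a matched sequence (45.9%), although these residues make up 12.1% of their codons. Over 5933 matched, well covered transcripts it was so in 36.3%, so the feature is general in this table. In 6 of the 37 genes (16.2%) the highest codon was one for valine with an acidic residue after it, against 4.92% of the 5933 transcripts. The 6 encode transport receptors, as do 22 of the 37 genes and 12 of the 17. They were picked out after their values were seen, and their contexts are shown with the valine codon and the acidic codon in capitals.
IPO7 codon 96, chr11:9430140-9430166, plus strand: cgagaaaatattGTAGAAgccattatc
KPNA6 codon 504, chr1:32636382-32636408, plus strand: cactactttggtGTAGAAgacgatgat
IPO9 codon 386, chr1:201826245-201826271, plus strand: ccccaacaatttGTAGAAgatgaagat
KPNA4 codon 34, chr3:160254584-160254610, minus strand: aatgaagttgtaGTTGAAttaaggaag
IPO11 codon 227, chr5:61766094-61766120, plus strand: gttaatggatttGTGGAAcctcataag
IPO4 codon 577, chr14:24653518-24653544, minus strand: ctctgcgaccagGTAGACgaccctgac
These codons held 1.44% of the CDS occupancy in IPO7, 2.82% in KPNA6, 2.80% in IPO9, 3.12% in KPNA4, 2.14% in IPO11 and 1.82% in IPO4. In KPNA6, IPO9 and IPO4 the acidic codon is followed by further acidic codons.

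The same pattern was seen in averages over coding sequences, where highest codons were kept unless they lay within 15 codons of either end. The averages are therefore not separate from the counts of highest codons. Occupancy was averaged by the residue encoded at the codon to which reads were assigned, or at the next codon, relative to the mean of each CDS and without the first and last 15 codons. At the next codon glutamate was highest, at 1.96 times the mean (1.83 to 2.04 in the 3 libraries), and above the mean in 37 of 37 genes. Aspartate had 1.76 in the mean and was above it in 36 of 37, and lysine had 1.69, in 35 of 37. Proline was lowest at 0.460, followed by valine at 0.525, phenylalanine at 0.534 and alanine at 0.555. At the assigned codon the spread was narrower, from 1.29 for aspartate to 0.707 for lysine, with valine at 1.26 and glutamate at 0.786. The values of the transport genes followed those of all matched transcripts, where the next codon gave 1.88 for glutamate, 1.76 for aspartate and 0.445 for proline. The largest absolute differences from those transcripts, over both positions, were glycine at the assigned codon, at 1.26 (1.24 to 1.29) against 1.09, and cysteine there, at 0.780 (0.770 to 0.789) against 0.930. The difference from other transcripts was not tested.

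**Figure D5:**
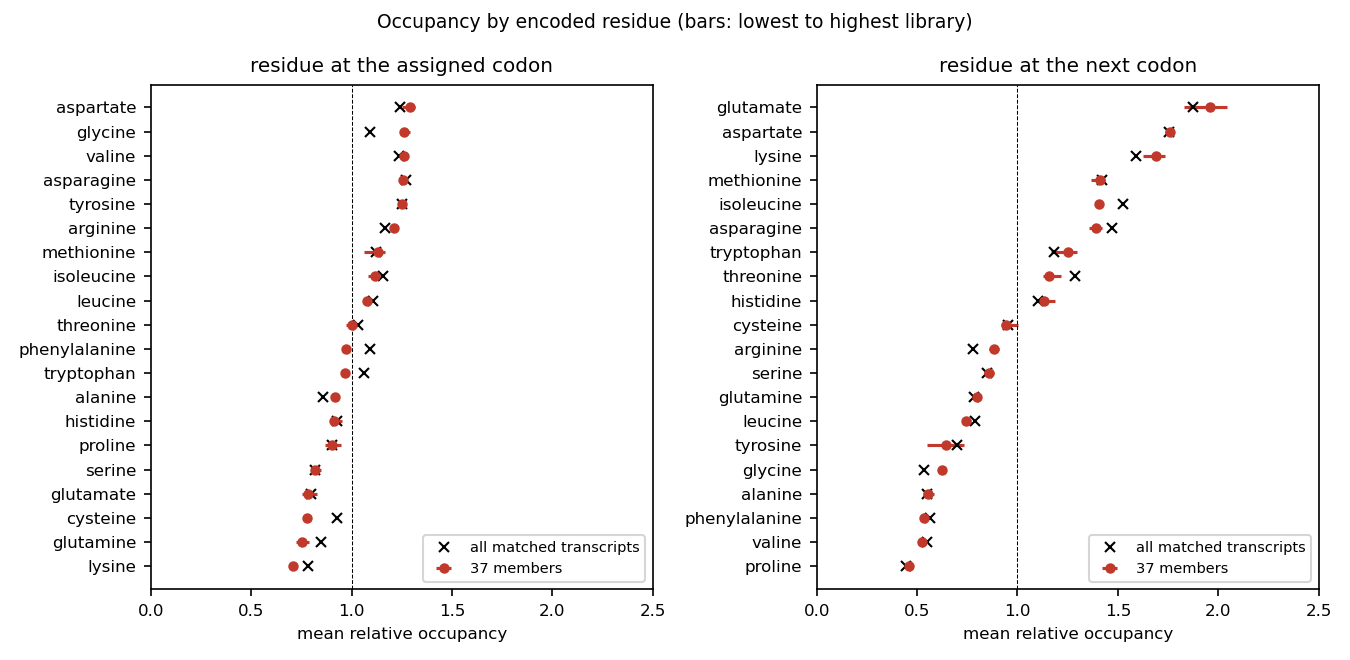
Mean relative occupancy by encoded residue, at the codon to which reads were assigned (left) and at the next codon (right), for 37 transport genes (circles, bars from the lowest to the highest library) and all matched transcripts (crosses). Glutamate, aspartate and lysine at the next codon stand at 1.96, 1.76 and 1.69, and proline at 0.460.

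FG repeats set part of the nucleoporins apart in sequence, and their codons were counted as in-frame pairs for phenylalanine and glycine. NUP214 had 44 pairs, NUP98 had 41 and NUP153 had 29, followed by NUP58 with 14, NUP54 with 9, NUP62 with 6 and NUP50 with 5. Occupancy between the first and the last pair was compared with the rest of the CDS in those with codon data. In NUP153, codons 236 to 1418, it was 1.09 times the rest (1.06 to 1.14 in the libraries), and in NUP62, codons 6 to 143, 0.811 times (0.776 to 0.832). NUP50 had 0.784 (0.742 to 0.808) and NUP54 had 0.706 (0.681 to 0.730), where the rest was only 48 codons. NUP210, a membrane nucleoporin with no FG domain but with 5 scattered pairs, had 0.818, within the range of these genes.

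Ribosomes in the 5′UTR, in the frame of the CDS, made up a median of 0.143% of the summed occupancy of the 38 genes and 0.364% over all transcripts. The share was above the latter in 14 of 38 (36.8%), and 7 (18.4%) had no 5′UTR read. Of all transcripts, 23.1% had a share below the 0.00356% of NUP160, transcripts without a 5′UTR read among them. IPO13 had the highest share, 5.31% (5.24 to 5.39 in the libraries), but from 92 reads over 261 codons of 5′UTR. KPNB1 had 4.44% from 3651 reads, XPOT 2.63% from 435, TNPO3 2.56% from 286 and NUP50 1.90% from 166. For KPNB1 the table used an isoform with a CDS of 732 codons, and all 3651 reads lay in codons that are coding in another annotated isoform of the gene, so they are 5′UTR reads by the choice of transcript alone.

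An ATG in the frame of the CDS was present among the 5′UTR codons that the table holds in 4 of 37 genes, IPO8, KPNB1, NUP50 and XPO6, counted upstream from the start codon along the matched transcript. The same count over all transcripts was not made. XPO1 had one 259 codons before its start codon, beyond the 239 codons of its 5′UTR in the table. In NUP50 the highest 5′UTR codon was such an ATG, 98 codons before the start codon, with 64 reads (29, 14 and 21 in the 3 libraries). It opens a frame of 16 codons that held 139 of the 166 5′UTR reads, or 83.7%. XPO6 likewise had its highest 5′UTR codon at an ATG, 69 codons before the start, with 21 reads, and its frame of 8 codons held 41 of 95 reads (43.2%). In IPO8 a frame of 36 codons held 19 of 23 reads, 4 of them at the ATG. In KPNB1 the frames opened by the ATG codons 150 and 128 codons before the start codon held 0 in-frame reads each. Mean occupancy of the frame was 0.476 times the CDS mean in NUP50, 0.770 times in XPO6 and 0.0409 times in IPO8. The contexts of the ATG codons of NUP50 and XPO6 are shown with the ATG in capitals, since reads gather on them.
NUP50 ATG, chr22:45559882-45559908, plus strand: tcgagttacaaaATGgccgcccggagc
XPO6 ATG, chr16:28222882-28222908, minus strand: gggtgggtctggATGaattgtctcggg
Occupancy at these codons was 3.72 times the CDS mean in NUP50 and 2.99 times in XPO6. The 5′UTR of the matched transcripts differed in length from that of the table (127 against 150 codons in NUP50), so positions rest on the part next to the start codon. Reads 3′ of the CDS were rare, with a median share of 0.0111%, and highest in NUP62CL at 1.14% (0 to 1.71 in the libraries).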

How the data were processed

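The authors sequenced RPFs and total RNA from HEK293 lysates, 3 libraries of each. According to the paper's methods RPFs of 28 to 30 nt were aligned to the hg19 transcriptome with bowtie, and the submitters' processing notes list cutadapt 1.16, Bowtie 1.1.2, TopHat2 2.1.1 and HTSeq 0.9.1. The authors deposited translational efficiency per gene and replicate as a ratio (RPFs over total RNA, linear scale). Its formula was not found in the paper or labels. The occupancy that the authors deposited is a signal per codon, in-frame RPF counts normalized for library size over TPM, with replicates combined. In it 31 transcripts were broken over 2 lines, and the codon at the break was set to missing.

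Translational efficiency was tested with limma 3.58.1 (R 4.3.3) on log2(value + 0.01), two-sided, against the median of all values in 1 fit over 8121 genes, unfiltered, at a Benjamini-Hochberg FDR of 0.05. Tested on simulated data for this comparison, 88.5% of 200 genes moved by 1 on the log2 scale were called, with 5 unmoved genes. In the simulation all other genes lay at the median, whereas 44.7% of the real genes were called above it and 44.6% below. The simulated shares therefore need not hold for the real data. Each replicate's RPFs and total RNA came from 1 lysate, so the ratio already holds the pairing. Occupancy values carry no replicate error and were not tested. Read numbers were recovered from the steps between values at a relative tolerance of 1e-08 (200 of 200 simulated transcripts exact, and steps found in 9455 real transcripts). Low depth limits NUP210, IPO13 and NUP62CL most, and all recovered reads are those in frame.

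Sequences come from GENCODE 44 on GRCh37, matched by symbol and CDS length for 37 of 38 genes. NUP85 did not match. For it and for NUP58, NUP88, NUP98, NUP107, NUP214 and KPNA2, which have no occupancy, the longest CDS of the symbol was used. This holds for shared sequence, base composition and FG pairs. Shared sequence is the percentage of 30-base CDS stretches found in transcripts of other genes. Well covered transcripts have reads in at least 40% of more than 100 codons. Genes named are the highest and lowest 5 of each measure, every transport receptor and the scaffold subunits, and others are named where a count needs them. The members and lists were chosen with earlier results of these data known. The start codon, valine-glutamate, base composition and FG descriptions were added after values had been seen. No protein sequences were used here.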

Additional observations from a re-analysis of the deposited data

How the results depend on the processing

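The count of genes above the median translational efficiency was between 27 and 31 and that below between 7 and 11 under the alternatives tried. These were a pseudocount of 0.1, a filter on low values, each replicate's own median or the mean of all genes as the reference, and each replicate left out. With each replicate's own median as the reference, 31 lay above and 8 below. The 27 above and 11 below were the counts against the mean of all genes. Against that mean, 3295 of all 8121 genes lay above and 4026 below, beside 3631 and 3618 in the main setting. No block or pairing term was fitted. Of 301 values for single genes under these alternatives, 288 kept their direction and their side of the threshold, 8 lost their call, 4 gained one and 1 reversed: NUP210, at -0.012 on the log2 scale against the mean of all genes. Against that mean NUP35, NUP88 and NUP107 lost their call and NUP54, NUP98 and NUP214 were called below it.

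Occupancy was compared between alternatives with the spread of the 3 libraries, taken as 0.5 times the range of their medians. The median CDS occupancy was 0.0570 without the highest codon of each gene and 0.0182 as the median per codon. The median ratio of the first to the last codons was 1.23 with windows of 50 codons, 1.09 without the 5 codons at either end and 1.19 with the first window from codon 26, which was added after the values had been seen. The side of 1 changed in NUP43, NUP155, NUP153, XPO7, IPO4 and IPO11 with shorter windows, without the end codons or without the highest codon of each window, and in IPO7, IPO9, NUP35 and TNPO3 with the window from codon 26. The median 5′UTR share was 0.116% without the 5 codons next to the start codon and 0.0867% without the highest 5′UTR codon. The cause was not tested. Depth limits NUP62CL, NUP210 and IPO13, whose CDS held 723, 2414 and 1637 in-frame reads, and occupancy values have no replicate error.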
